A study of Mus musculus with 13 samples.

Results

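Chemokines are small secreted or membrane-bound proteins that direct the migration of leukocytes along a gradient. The chemokine ligand genes were followed here across 13 tumors of a mouse model of NUT carcinoma. Members were the protein-coding genes whose GENCODE symbol is Cxcl or Ccl with a number, or is Cx3cl1 or Xcl1. The annotation holds 44 such genes, of which 37 had a row in the table of 55332 genes with values, and the other 7 are extra copies of Ccl19, Ccl21 and Ccl27 genes on unplaced scaffolds. Of the 37 members, 34 reached 10 counts in 2 or more tumors, and 1, Ccl26, had no count in any tumor.

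All mice were NCT+/-, a model in which a Cre recombinase sporadically induces a chromosomal translocation that drives the tumor. Oral Sox2 WT tumors (n = 4) came from KRT14-Cre; NCT+/- mice. For the oral Sox2 KO tumors (n = 2) the label reads KRT4Cre; NCT+/-; Sox2fl/fl, whereas the study describes KRT14-Cre mice. Pancreatic Sox2 WT tumors (n = 4) came from Pdx1-Cre; NCT+/- mice and pancreatic Sox2 KO tumors (n = 3) from Pdx1-Cre mice with NCT+/- and floxed Sox2. Because each site had its own Cre driver, site and driver cannot be told apart, and the RNA of a whole tumor holds that of host stroma and immune cells beside tumor cells. Ages were not in the labels used here. Each tumor was 1 library of total RNA depleted of ribosomal RNA.

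By the cysteines near their amino terminus, chemokines fall into CC, CXC, C and CX3C families, and they signal through G protein-coupled receptors on the recruited cells. CXC ligands with a glutamate-leucine-arginine (ELR) motif attract neutrophils through Cxcr2, whereas Cxcl9, Cxcl10 and Cxcl11 are induced by interferon and attract activated T cells through Cxcr3. Inflammatory CC ligands mainly attract monocytes, macrophages and eosinophils, and a further set of CC ligands guides lymphocytes and dendritic cells to lymphoid organs, skin and mucosa.

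Estimated counts totalled 11735031 and 20431977 in the oral KO tumors, from 29393925 to 46134532 in the 8 WT tumors and from 89562488 to 120482588 for the pancreatic KO group. Depth therefore differed between genotypes at both sites. Oral KO tumor 1 also stood apart in the share of its counts from protein-coding genes, 59.5%, against 84.5% in oral KO tumor 2 and 85.1% to 91.7% in the other 11. Sox2 reached 9.14 to 34.9 CPM (the count scaled by library total and TMM factor) in the WT tumors and at most 0.0364 CPM in the KO tumors. Epithelial identity was checked with 5 squamous keratinocyte genes (Krt5, Krt14, Trp63, Krt6a and Dsg3), which summed to 3720 CPM or more in every tumor.

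Chemokine genes lie in dense clusters, and 12 of the 37 members are on chromosome 11 and 10 on chromosome 5. The 5 ELR-type genes occupy 147 kb of chromosome 5 (GRCm38), all on the plus strand, with Cxcl5 at chr5:90759360-90761624, Cxcl3 at chr5:90786103-90789600, Cxcl15 at chr5:90794534-90803067, Cxcl1 at chr5:90891241-90893115 and Cxcl2 at chr5:90903871-90905938. Cxcl9 at chr5:92321347-92328079 and Cxcl10 at chr5:92346638-92348889 sit farther along on the minus strand, within 28 kb. The promoters of these groups are shown because the called differences between tumor sites ran in opposite directions in them. Each sequence holds the 250 bases before the RefSeq start (GRCm38.p6), 5′ to 3′ on the strand of the gene, and capitals mark matches to the kappaB motif (GGG and TTTCC separated by 2 bases of any kind), the interferon-stimulated response element (GAAA and GAAA separated by 2 bases) or the gamma-activated site TTCNNNGAA on either strand. The table of promoters had no entry for Cxcl5.
Cxcl1: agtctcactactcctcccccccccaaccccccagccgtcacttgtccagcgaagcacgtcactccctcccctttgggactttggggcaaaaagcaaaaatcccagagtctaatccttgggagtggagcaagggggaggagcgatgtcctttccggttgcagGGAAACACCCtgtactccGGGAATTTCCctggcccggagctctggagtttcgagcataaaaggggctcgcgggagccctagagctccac
Cxcl2: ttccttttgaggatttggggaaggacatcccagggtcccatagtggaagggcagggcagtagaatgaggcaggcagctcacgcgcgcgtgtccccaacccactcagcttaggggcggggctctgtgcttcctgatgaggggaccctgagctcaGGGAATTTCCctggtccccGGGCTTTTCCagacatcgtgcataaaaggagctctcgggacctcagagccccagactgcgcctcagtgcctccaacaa
Cxcl3: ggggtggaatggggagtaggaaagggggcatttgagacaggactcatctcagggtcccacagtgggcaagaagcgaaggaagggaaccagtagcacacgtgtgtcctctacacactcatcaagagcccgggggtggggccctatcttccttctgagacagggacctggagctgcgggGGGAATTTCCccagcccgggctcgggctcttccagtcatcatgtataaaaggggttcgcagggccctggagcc
Cxcl9: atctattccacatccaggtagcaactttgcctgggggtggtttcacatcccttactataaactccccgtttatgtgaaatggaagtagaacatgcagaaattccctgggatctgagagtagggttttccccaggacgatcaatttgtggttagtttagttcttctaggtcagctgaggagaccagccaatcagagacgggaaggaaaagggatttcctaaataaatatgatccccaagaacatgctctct
Cxcl10: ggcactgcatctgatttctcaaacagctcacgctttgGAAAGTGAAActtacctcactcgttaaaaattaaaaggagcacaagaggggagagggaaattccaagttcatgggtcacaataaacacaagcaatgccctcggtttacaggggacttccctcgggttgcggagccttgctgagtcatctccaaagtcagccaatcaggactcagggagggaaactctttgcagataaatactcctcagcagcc
These windows are chr5:90890995-90891244 for Cxcl1, chr5:90903649-90903898 for Cxcl2 and chr5:90785851-90786100 for Cxcl3 on the plus strand, and chr5:92328080-92328329 for Cxcl9 and chr5:92348890-92349139 for Cxcl10 on the minus strand. Cxcl1 and Cxcl2 each held 2 matches to the kappaB letters and Cxcl3 held 1, all within positions -97 to -62 from the start. Cxcl10 held 1 match to the interferon-stimulated element, at positions -213 to -204, and the Cxcl9 window matched none of the 3 sets of letters. Of the 27 members with a promoter entry, 5 (18.5%) held the kappaB letters, namely Ccl20, Ccl9, Cxcl1, Cxcl2 and Cxcl3, against 1.41% of all 32851 promoters. The interferon-stimulated element was found in 3 members (11.1%; Ccl19, Cxcl10 and Cxcl14) against 2.98% of promoters, and the gamma-activated site in 2 (7.41%; Ccl17 and Cxcl14) against 7.02%. These are matches of letters and not sites of binding. Only these exact letters were searched. Other forms of the same motifs stay in lower case, such as gggaaattcc and gggacttccc in the Cxcl10 window. The capitals therefore do not show which promoters lack kappaB sites.

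To compare levels between genes, CPM were divided by the exon length in kilobases. By the mean of the 4 group means, the eosinophil attractant Ccl11 came first at 41.8 CPM per kb, followed by Cxcl5 at 17.8, the epithelial chemokine Cxcl14 at 17.6 and the transmembrane ligand Cxcl16 at 17.2 CPM per kb. The next 11 were Ccl7, Ccl6, Ccl8, Cxcl3, Cxcl17, Ccl2, Ccl21a, Ccl9, Cxcl1, Cxcl10 and Cx3cl1, from 9.46 down to 3.01 CPM per kb. The order differed by group. In oral WT tumors Ccl11 was at 44.3, Cxcl14 at 35.7 and Cxcl5 at 3.87 CPM per kb, whereas in pancreatic WT tumors Ccl11 was at 73.4, Cxcl5 at 30.2 and Cxcl14 at 15.9 CPM per kb. In oral KO tumors Ccl11, at 8.95 CPM per kb, was below Cxcl5 at 15.4, Cxcl14 at 10.2 and Cxcl16 at 9.05, and in pancreatic KO tumors Ccl11 was at 40.7, Cxcl16 at 22.8 and Cxcl5 at 21.6 CPM per kb.

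**Figure D1:**
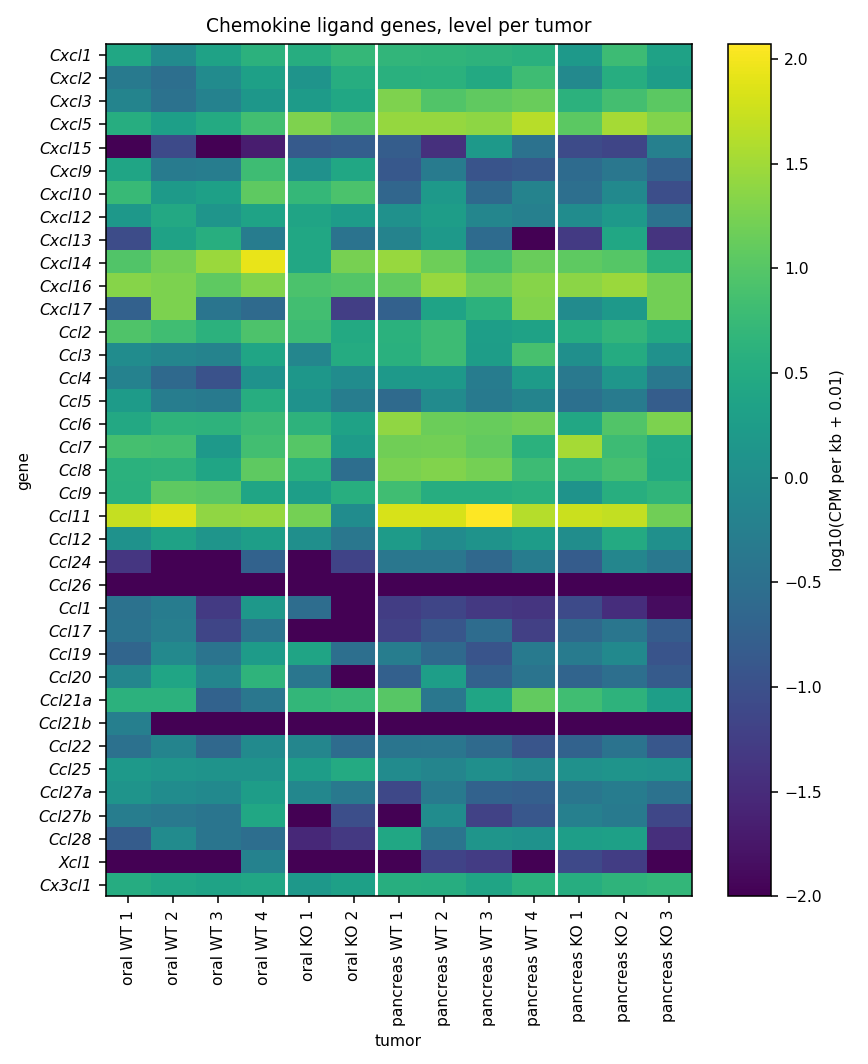
Level of each of the 37 chemokine ligand genes (rows) in each of the 13 tumors (columns, separated by white lines into oral WT, oral KO, pancreatic WT and pancreatic KO), as log10 of CPM per kb plus 0.01. Ccl11, Cxcl5, Cxcl14 and Cxcl16 are the brightest rows, and Ccl26 is dark throughout.

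Differences between groups were tested with edgeR over all genes that passed the count filter, and a gene was called when its adjusted p was under 0.05 and its absolute log2 fold change above 1. In whole tumors, fewer cells of a type and less RNA per cell cannot be told apart. Between the oral and pancreatic WT tumors, 10 of 33 members tested were called (30.3%), against 16.5% of all 23164 genes. Cxcl9, Cxcl10, Ccl1 and Ccl27a were higher in the oral tumors (4 members; background 9.3% of genes) and Cxcl2, Cxcl3, Cxcl5, Cxcl15, Ccl3 and Ccl6 were higher in the pancreatic tumors (6 members; background 7.24%). Between the oral and pancreatic KO tumors, 6 of 33 members were called (18.2%), against 25.2% of all genes. Cxcl9, Cxcl10 and Ccl25 were higher in the oral KO tumors (3 members; background 14.6%) and Cxcl3, Cxcl16 and Cx3cl1 in the pancreatic KO tumors (3 members; background 10.7%). Between Sox2 KO and WT oral tumors, 2 of 31 members rose, Cxcl5 and Ccl25 (6.45%), against 11.7% of all genes called, 8.81% up and 2.89% down, and the median log2 fold change was -0.27 over the members and 0 over all genes. DESeq2 called 6 members there, and 4004 of all 22342 genes. In pancreatic tumors edgeR called 0 of 33 members, against 0.629% of all genes (0.337% up and 0.292% down). There 3 members (Ccl8, Ccl3 and Cxcl3) had an unadjusted p under 0.05, against 15.9% of all genes. DESeq2 called 1 member, Ccl8, and 1111 of all 24653 genes. The genotype effect differed between sites for 2 of 34 members (5.88%), Cxcl3 and Cxcl5, both with a positive difference, against 12.3% of all genes called and 7.41% called in that direction (4.85% in the other). An unadjusted p under 0.05 was found for 6 of 31 members in oral tumors (35.4% of all genes), 8 of 34 for the difference of the effects (34%), 16 of 33 between WT tumors (36.8%) and 9 of 33 between KO tumors (46.7%). The same tumors enter several of these comparisons, which are therefore not independent.

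**Figure D2:**
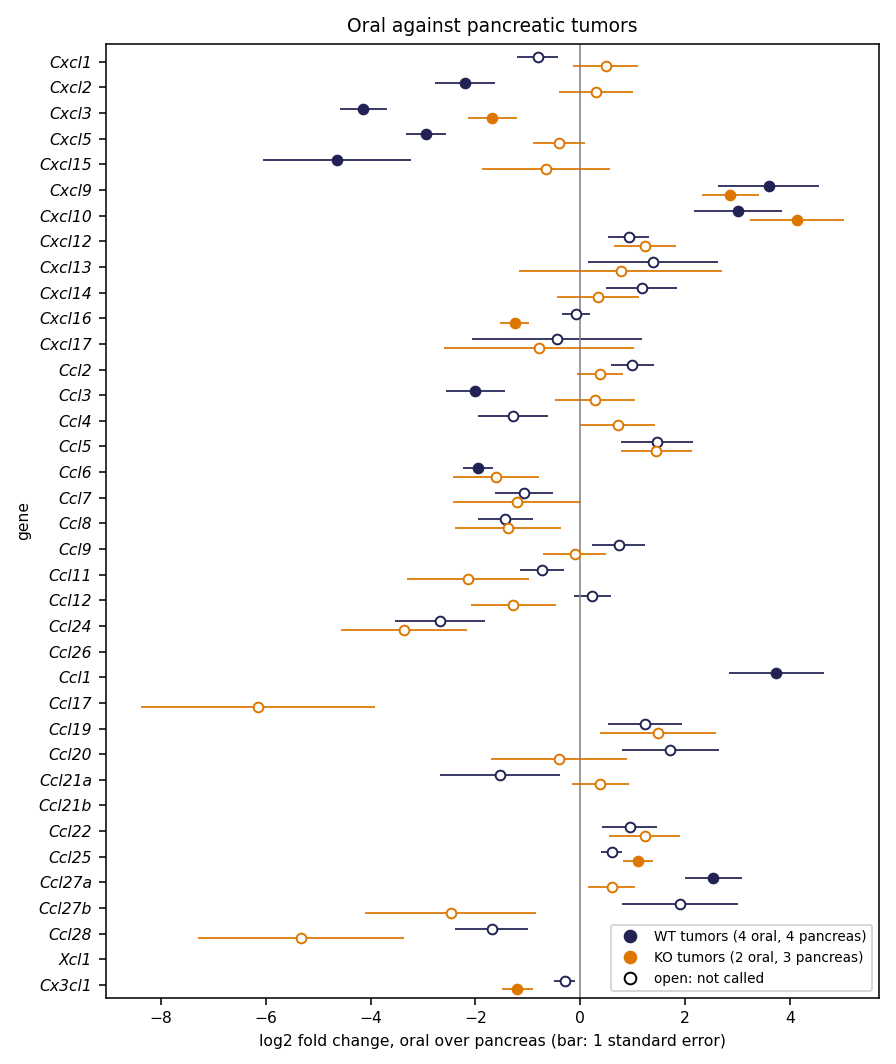
Log2 fold change of each member between oral and pancreatic tumors (x axis; positive is higher in oral tumors) in WT tumors (dark blue, 4 against 4) and in KO tumors (orange, 2 against 3), with bars of 1 standard error and filled points for called genes. Cxcl3 is filled on the pancreatic side and Cxcl9 and Cxcl10 on the oral side in both genotypes. Ccl17 had no count in either oral KO tumor, so its fitted KO value is not a bound.

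The ELR-type ligands Cxcl1, Cxcl2, Cxcl3, Cxcl5 and Cxcl15 were the group with the most calls. Of the 5, 4 were called higher in pancreatic than in oral WT tumors, against 7.24% of all genes called in that direction. All 5 had a negative oral-over-pancreas difference, and their median log2 fold change was -2.95, against 0 over all genes. Cxcl3, a neutrophil attractant, measured 2.38, 1.18, 2.22 and 4.9 CPM in the oral WT tumors and 66.9, 33, 41.2 and 48.6 CPM in the pancreatic WT tumors. Every pancreatic WT tumor lay far above every oral WT tumor, and the level was 17.6-fold lower in oral tumors (log2 fold change -4.14, SE 0.45, edgeR adjusted p = 0.000915). Cxcl5, which is made mainly by epithelial cells, measured 6.31, 3.74, 5.81 and 12.9 CPM in the oral WT tumors and 49.8, 49.3, 44.8 and 81 CPM in the pancreatic WT tumors. The groups did not overlap, and Cxcl5 was 7.72-fold lower in the oral tumors (log2 fold change -2.95, SE 0.38, edgeR adjusted p = 0.00167). Both calls were kept under every alternative tried, including each omission of 1 tumor.

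Cxcl2, a paralog of Cxcl3, measured 0.936, 0.619, 1.88 and 4.18 CPM in oral WT and 7.92, 8.19, 6.06 and 13.3 CPM in pancreatic WT tumors. It was 4.6-fold lower in oral tumors (log2 fold change -2.2, SE 0.57, edgeR adjusted p = 0.0239). This call was lost without oral WT tumor 1 (adjusted p = 0.0529), oral WT tumor 3 (0.0575) or pancreatic WT tumor 4 (0.0584). Reads can be split between these paralogs, since 7.59% of the 31-base sequences of Cxcl2 occur in other genes, chiefly Cxcl3, and 5.46% of those of Cxcl3. Cxcl15, a chemokine of lung epithelium, was low, with 0, 0.155, 0 and 0.0232 CPM in oral WT and 0.315, 0.0579, 3.25 and 0.707 CPM in pancreatic WT tumors. One pancreatic tumor held most of its signal, and the log2 fold change of -4.64 (SE 1.41, edgeR adjusted p = 0.0441) became -3.02 (adjusted p = 0.122) without pancreatic WT tumor 3. The call was also lost without oral WT tumor 1, 3 or 4 (adjusted p = 0.0933, 0.0947 and 0.0724) or pancreatic WT tumor 1 or 4 (0.0533 and 0.0613), and with no count filter (0.0879). Cxcl1, the remaining ELR-type ligand, was not called, with 4.97, 1.7, 4.09 and 7.75 CPM in oral WT and 8.92, 8.56, 7.98 and 7.17 CPM in pancreatic WT tumors.

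**Figure D3:**
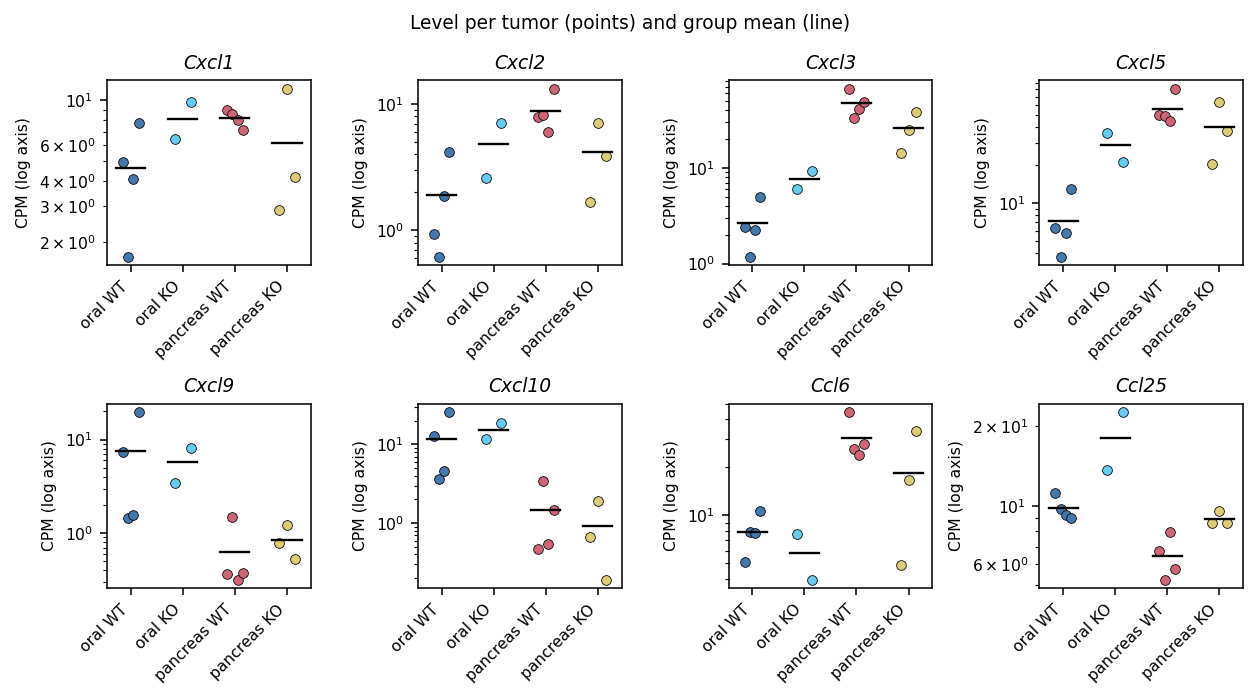
CPM of 8 members in each tumor (points) with the mean of each group (line), on log axes that differ between panels. Cxcl3 and Cxcl5 are lowest in the 4 oral WT tumors, and Cxcl10 is higher in every oral than in every pancreatic tumor of the same or the other genotype.

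Between Sox2 KO and WT tumors, 1 of 4 ELR-type ligands tested was called in oral tumors and 0 of 5 in pancreatic tumors. Of all genes, 11.7% were called in oral and 0.629% in pancreatic tumors. In oral tumors all 4 that were tested had a positive KO-over-WT difference (median log2 fold change 1.6), and Cxcl5 alone of them was called. It measured 36.2 and 21.1 CPM in the oral KO tumors, both above the highest oral WT tumor at 12.9 CPM, a 4.52-fold rise (log2 fold change 2.18, SE 0.48, edgeR adjusted p = 0.0331). The other 3 did not pass with edgeR in the oral tumors. Cxcl3 measured 5.96 and 9.24 CPM in oral KO tumors (log2 fold change 1.68, SE 0.54, edgeR adjusted p = 0.0737), above each oral WT tumor, and was called without oral WT tumor 4 (2.16, adjusted p = 0.0339), by DESeq2 (1.65, 0.026) and in 1 fit of all 13 tumors (1.62, 0.0283). Cxcl2 measured 2.61 and 7.06 CPM (1.52, SE 0.77, adjusted p = 0.204) and Cxcl1 6.42 and 9.82 CPM (0.99, SE 0.54, adjusted p = 0.232), and both overlapped the WT range. Cxcl15, which was not tested, measured 0.279 and 0.327 CPM from 3 and 9 counts. The Cxcl5 call was lost without oral WT tumor 1, 2 or 3 (adjusted p = 0.0769, 0.0761 and 0.0767), without oral KO tumor 1 (log2 fold change 1.71, adjusted p = 0.139) or oral KO tumor 2 (2.54, 0.0898), and in a fit of protein-coding genes alone (2.36, 0.0702). With 2 KO tumors, the omission of either leaves a single tumor that is assumed to vary like the WT tumors.

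In the pancreatic tumors all 5 ELR-type ligands had a negative KO-over-WT difference (median log2 fold change -0.89, against 0.02 over all genes). The edgeR test called 0 of 5 (0.629% of all genes), with 1 at an unadjusted p under 0.05 (15.9% of all genes). Cxcl3 measured 14.4, 24.9 and 38.6 CPM in pancreatic KO tumors (log2 fold change -0.89, SE 0.36, edgeR adjusted p = 0.292). Cxcl2 measured 1.67, 7.06 and 3.86 CPM (-1.09, SE 0.48, adjusted p = 0.323) and Cxcl5 20.4, 63 and 37.6 CPM (-0.49, SE 0.38, adjusted p = 0.576). Cxcl1 measured 2.88, 11.4 and 4.18 CPM and Cxcl15 0.16, 0.127 and 1.25 CPM. Pancreatic KO tumor 1 had the lowest value of Cxcl1, Cxcl2, Cxcl3 and Cxcl5 among the 3 KO tumors. The genotype effect itself differed between the sites for Cxcl5 (oral minus pancreas 2.6 on the log2 scale, SE 0.66, edgeR adjusted p = 0.0259) and Cxcl3 (2.52, SE 0.66, adjusted p = 0.029), and was 2.57 (SE 0.96, adjusted p = 0.0852) for Cxcl2, which was called without oral WT tumor 4 (3.3, adjusted p = 0.0236) and by DESeq2 (2.5, 0.0408). The Cxcl5 call was lost without oral KO tumor 1 (adjusted p = 0.0914) or pancreatic KO tumor 3 (0.0617). The Cxcl3 call was lost without oral KO tumor 2 (0.101), pancreatic WT tumor 1 (0.0578) or 3 (0.0521), or pancreatic KO tumor 1 (0.0534) or 2 (0.0609). Between the KO tumors of the 2 sites, Cxcl3 remained 3.21-fold lower in oral tumors (log2 fold change -1.68, SE 0.47, edgeR adjusted p = 0.0398), and Cxcl5 differed by -0.41 (SE 0.5, adjusted p = 0.543). That Cxcl3 call was lost without oral KO tumor 1 (adjusted p = 0.168) or 2 (0.0983) or pancreatic KO tumor 2 (0.0832) or 3 (0.0797), and among protein-coding genes alone (0.073).

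The genes that act with the ELR-type ligands were described beside them. Their receptor Cxcr2 measured 3.41, 3.13, 3.47 and 9.38 CPM in oral WT and 25.8, 10.2, 8.5 and 12.4 CPM in pancreatic WT tumors and was lower in the oral tumors (log2 fold change -1.55, SE 0.48, edgeR adjusted p = 0.0453). Ppbp, a Cxcr2 ligand that the symbol rule does not include, measured 18.9, 5.88, 8.22 and 16.5 CPM in oral WT, 68.9 and 34 CPM in oral KO, 645, 125, 439 and 135 CPM in pancreatic WT and 267, 118 and 226 CPM in pancreatic KO tumors. Pf4, the other listed chemokine with a symbol outside the rule, measured 0.401 to 3.59 CPM in the tumors. Its oral KO-over-WT difference was -0.32 (SE 0.72, edgeR adjusted p = 0.776). Ppbp was lower in oral than in pancreatic WT tumors (log2 fold change -4.77, SE 0.7, edgeR adjusted p = 0.00258) and rose with Sox2 loss in oral tumors (2.25, SE 0.51, adjusted p = 0.0361). The cytokine Il1b, an inducer of these chemokines, was also measured, with 2.12, 2.85, 2.56 and 3.74 CPM in oral WT, 10.8 and 11 CPM in oral KO, 22.2, 14.3, 4.8 and 22.9 CPM in pancreatic WT and 5.53, 16.9 and 3.48 CPM in pancreatic KO tumors. Il1b was lower in oral than in pancreatic WT tumors (log2 fold change -2.5, SE 0.45, edgeR adjusted p = 0.00565) and rose in oral KO tumors (2.13, SE 0.32, adjusted p = 0.0189). The 8 neutrophil marker genes summed to 5.78 to 13.6 CPM in oral WT, 8.22 and 12.8 CPM in oral KO, 12.2 to 35.1 CPM in pancreatic WT and 9 to 28.9 CPM in pancreatic KO tumors. Elane was at 0 in each pancreatic WT tumor and Cebpe in both oral KO tumors, and Ly6g stayed at or below 0.203 CPM in every tumor. Of 5 neutrophil genes tested by site in WT tumors only Csf3r was called (16.5% of all genes), higher in pancreatic tumors. Of the 5, 2 had a difference toward the oral tumors. Between the KO tumors of the 2 sites, 1 of 5 neutrophil genes tested was called (25.2% of all genes), higher in oral tumors. The part of these genes in the ligand differences was not tested. Calls of genes that are not members, here and in later paragraphs, were not rechecked under the alternatives, so their stability was not tested. Over all genes, the oral KO against WT calls went from 2614 to 27 among protein-coding genes alone and to 4004 with DESeq2.

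The CXCR3 ligands ran in the opposite direction by site. Cxcl9 measured 7.42, 1.45, 1.56 and 19.7 CPM in oral WT and 0.367, 1.48, 0.316 and 0.379 CPM in pancreatic WT tumors. Oral WT tumor 2 fell just below the highest pancreatic WT tumor and the other 3 lay above it, and Cxcl9 was 12-fold higher in the oral tumors (log2 fold change 3.59, SE 0.97, edgeR adjusted p = 0.0292). Cxcl10 measured 12.7, 3.65, 4.59 and 25.8 CPM in oral WT and 0.472, 3.44, 0.541 and 1.46 CPM in pancreatic WT tumors, without overlap, and was 8.03-fold higher in the oral tumors (3.01, SE 0.84, adjusted p = 0.0322). The Cxcl9 call was lost without pancreatic WT tumor 1, 3 or 4 (adjusted p = 0.0779, 0.0813 and 0.0707) and with no count filter (0.0697). The Cxcl10 call was lost without oral WT tumor 1 or 4 (0.0562 and 0.0517) or pancreatic WT tumor 1, 3 or 4 (0.0748, 0.0812 and 0.0713), and with no count filter (0.0774). Without oral WT tumor 4, the tumor with the highest values, the log2 fold change of Cxcl10 was 2.27.

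The difference by site was also present in the KO tumors. Cxcl9 measured 3.44 and 8.11 CPM in oral KO and 0.782, 1.22 and 0.532 CPM in pancreatic KO tumors, a 7.28-fold difference (log2 fold change 2.86, SE 0.54, edgeR adjusted p = 0.0149). Cxcl10 measured 11.8 and 18.8 CPM in oral KO and 0.675, 1.92 and 0.189 CPM in pancreatic KO tumors, a 17.5-fold difference (4.13, SE 0.9, adjusted p = 0.0219). No tumor of one site overlapped the other for either gene. The Cxcl9 call was lost without oral KO tumor 2 (adjusted p = 0.0598) and the Cxcl10 call without oral KO tumor 1 (0.0511), oral KO tumor 2 (0.0778) or pancreatic KO tumor 1 (0.0637). Cxcl11, which the annotation types as a pseudogene and the rule therefore leaves out, measured 1.14, 0.588, 0.25 and 1.58 CPM in oral WT, 1.49 and 3.31 CPM in oral KO, 0.629, 0.579, 0.744 and 0.429 CPM in pancreatic WT and 0.737, 0.553 and 0.614 CPM in pancreatic KO tumors. It was called by site in the KO tumors (log2 fold change 2.02, SE 0.46, edgeR adjusted p = 0.0231). Cxcl9 and Cxcl10 were called by genotype at neither site.

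Interferon gamma itself, Ifng, was at 0 in all tumors but oral WT tumor 4. Its 0.0232 CPM there was below the limit of 3 counts in that tumor (0.0742 CPM on the library total without the TMM factor). Ifng did not pass the count filter for testing. Of 8 genes of the interferon gamma response, Socs1 was higher and Cd274 lower in oral than in pancreatic WT tumors (16.5% of all genes called). Gbp3 alone of the 8 was called among the KO tumors, higher in oral tumors (25.2% of all genes called). The receptor Cxcr3 measured at most 0.395 CPM in any tumor. The 9 T cell marker genes summed to 13.5 to 30.4 CPM in oral WT, 12.3 and 12.6 CPM in oral KO, 4.56 to 6.39 CPM in pancreatic WT and 5.47 to 10.6 CPM in pancreatic KO tumors. No T cell gene was at 0 throughout a group. Cd3g, Cd4 and Lck of the 8 tested were called, higher in oral WT than in pancreatic WT tumors. Of all genes, 9.3% were called in that direction. Cd4 alone measured 6.13, 16.3, 19.4 and 16.2 CPM in oral WT and 1.77 and 3.53 CPM in oral KO tumors. The genotype calls in oral tumors ran both ways, with Cd4 down (log2 fold change -2.26, SE 0.56, edgeR adjusted p = 0.0414) and Cd3d up (2.1, SE 0.47, adjusted p = 0.0338). The part of T cells in the levels of Cxcl9 and Cxcl10 was not tested.

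Of the remaining CXC ligands (Cxcl12, Cxcl13, Cxcl14, Cxcl16 and Cxcl17), 1 was called in 1 comparison. That was 1 of 5 between the KO tumors of the 2 sites, against 25.2% of all genes. Cxcl16, whose receptor is Cxcr6, measured 64.7, 56, 34.8 and 60.3 CPM in oral WT, 25.3 and 29.4 CPM in oral KO, 38, 83.8, 44.6 and 64.1 CPM in pancreatic WT and 71.2, 87.1 and 48.2 CPM in pancreatic KO tumors. Both oral KO tumors lay below all 11 other tumors. Cxcl16 was 2.38-fold lower in oral than in pancreatic KO tumors (log2 fold change -1.25, SE 0.28, edgeR adjusted p = 0.0221), and its oral KO-over-WT difference of -0.8 (SE 0.26, adjusted p = 0.0796) did not pass. The call by site was lost without oral KO tumor 1 (adjusted p = 0.101) or 2 (0.0781), without pancreatic KO tumor 1 (0.0672) or 2 (0.0578), and among protein-coding genes alone (0.0543). Cxcr6 itself was higher in oral tumors in both genotypes, with a WT log2 fold change of 2.72 (SE 0.46, edgeR adjusted p = 0.00422) and a KO value of 4.35 (SE 0.94, adjusted p = 0.0204). It measured 1.34, 0.866, 0.563 and 1.21 CPM in oral WT tumors and at most 0.231 CPM in any pancreatic tumor. The oral KO tumors were far apart at 3.07 and 0.4 CPM.

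Cxcl14, a chemokine expressed constitutively by epithelium, varied widely between tumors. It measured 16.9, 29.4, 53.7 and 161 CPM in oral WT, 5.12 and 32.1 CPM in oral KO, 50.5, 27.1, 13.8 and 25.1 CPM in pancreatic WT and 21.4, 18.2 and 7.35 CPM in pancreatic KO tumors. The 4 groups overlapped. Cxcl17, a mucosal chemokine, was high in single tumors of each group. It measured 0.134, 14.1, 0.281 and 0.186 CPM in oral WT, 5.21 and 0.0364 CPM in oral KO, 0.131, 1.74, 3.13 and 15.2 CPM in pancreatic WT and 0.684, 1.19 and 12 CPM in pancreatic KO tumors. Cxcl12, the stromal ligand of Cxcr4, ranged from 2.75 to 23.3 CPM and Cxcl13, a B cell attractant, from 0 to 4.09 CPM over the 13 tumors. Cxcr4 fell in oral KO tumors (log2 fold change -1.02, SE 0.27, edgeR adjusted p = 0.0486).

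Among the 12 inflammatory CC ligands, 2 of 11 tested, Ccl6 and Ccl3, were called by site in WT tumors, both higher in the pancreas. That share, 18.2%, was near the 16.5% of all genes called in this comparison. Ccl6, a rodent attractant of myeloid cells, measured 5.06, 7.89, 7.75 and 10.7 CPM in oral WT and 44.3, 26, 23.8 and 27.8 CPM in pancreatic WT tumors. The groups were far apart, with a 3.86-fold lower level in oral tumors (log2 fold change -1.95, SE 0.28, edgeR adjusted p = 0.00219), and the call was kept under every alternative tried. In the KO tumors Ccl6 measured 7.63 and 3.93 CPM in the mouth and 4.88, 16.7 and 33.8 CPM in the pancreas, where the groups overlapped (-1.61, SE 0.82, adjusted p = 0.173). Ccl3, an attractant of myeloid cells, measured 0.713, 0.557, 0.5 and 1.9 CPM in oral WT, 0.559 and 2.47 CPM in oral KO, 2.94, 4.66, 1.42 and 6.01 CPM in pancreatic WT and 0.808, 2.47 and 0.866 CPM in pancreatic KO tumors. It was 4-fold lower in oral WT than in pancreatic WT tumors (log2 fold change -2, SE 0.56, edgeR adjusted p = 0.0319). That call was lost without oral WT tumor 1, 2 or 3 (adjusted p = 0.0754, 0.0812 and 0.0746) or pancreatic WT tumor 1, 2 or 4 (0.0544, 0.0726 and 0.0776).

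Ccl11, the eosinophil attractant named above, measured 57.1, 78.1, 27.3 and 29.3 CPM in oral WT, 18.3 and 1.02 CPM in oral KO, 73.1, 72.1, 128 and 44.7 CPM in pancreatic WT and 60.9, 54.2 and 17 CPM in pancreatic KO tumors. Both oral KO tumors were below all oral WT tumors and far from each other, and the difference did not pass with edgeR (log2 fold change -2.13, SE 1.08, adjusted p = 0.208), whereas DESeq2 called it (-2.16, adjusted p = 0.0411). Ccl24, another eosinophil attractant, was at most 0.232 CPM in oral WT and 0.293 to 0.656 CPM in pancreatic WT tumors (log2 fold change -2.68, SE 0.86, edgeR adjusted p = 0.0521), and was called without oral WT tumor 4 (-4.56, adjusted p = 0.00519) and by DESeq2 (-2.77, 0.0165). Ccl8 measured 2.07, 2.17, 1.28 and 5.99 CPM in oral WT, 1.95 and 0.146 CPM in oral KO, 9.05, 10.2, 8.56 and 3.21 CPM in pancreatic WT and 2.67, 3.77 and 1.54 CPM in pancreatic KO tumors. Of the members in the pancreatic genotype comparison it had the smallest p (log2 fold change -1.56, SE 0.46, edgeR adjusted p = 0.159; DESeq2 adjusted p = 0.0146), with the KO tumors overlapping pancreatic WT tumor 4. Ccl3 had a difference of -1.46 there (SE 0.59, adjusted p = 0.28).

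The monocyte attractants Ccl2 and Ccl7 are both on chromosome 11. Ccl2 measured 10.2, 7.67, 4.63 and 9.63 CPM in oral WT, 7.07 and 3.35 CPM in oral KO, 4.51, 7.12, 2.14 and 2.55 CPM in pancreatic WT and 3.8, 5.42 and 3.42 CPM in pancreatic KO tumors. Ccl7 measured 6.02, 5.6, 1.28 and 5.55 CPM in oral WT, 8.01 and 1.38 CPM in oral KO, 12.6, 13, 10.1 and 3.18 CPM in pancreatic WT and 26.4, 5 and 2.43 CPM in pancreatic KO tumors. Ccl9, like Ccl6 a rodent ligand of Ccr1, measured 11.9, 35.4, 33.2 and 7.5 CPM in oral WT, 5.77 and 11 CPM in oral KO, 20.5, 10.3, 10.5 and 11.8 CPM in pancreatic WT and 3.7, 11 and 14 CPM in pancreatic KO tumors. For these 3 genes the groups overlapped in every comparison. Ccl4, Ccl5 and Ccl12 stayed at or below 3.34 CPM in every tumor and were not called. The 10 macrophage marker genes summed to 368 to 657 CPM in oral WT, 134 and 185 CPM in oral KO, 392 to 487 CPM in pancreatic WT and 279 to 727 CPM in pancreatic KO tumors, with none at 0 throughout a group. C1qa, C1qb, C1qc and Fcgr1 of the 10 fell in oral KO tumors, where 2.89% of all genes were called down. No inflammatory CC ligand was called there by edgeR, with 0 of 10 at an unadjusted p under 0.05 (35.4% of all genes), whereas DESeq2 called Ccl11. The part of macrophages in the levels of the CC ligands was not tested.

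Of the CC ligands of lymphoid organs, dendritic cells and epithelium, 3 were called in at least 1 comparison. By comparison that was 2 of 9 tested between WT tumors, 1 of 9 between KO tumors and 1 of 9 by genotype in oral tumors. The shares of all genes called were 16.5%, 25.2% and 11.7%. Ccl25, which attracts thymocytes and gut lymphocytes through Ccr9, measured 11.2, 9.69, 9.19 and 8.98 CPM in oral WT, 13.6 and 22.6 CPM in oral KO, 6.77, 5.24, 7.98 and 5.76 CPM in pancreatic WT and 8.59, 9.52 and 8.64 CPM in pancreatic KO tumors. At each site every KO tumor lay above every WT tumor. It rose 2.1-fold with Sox2 loss in oral tumors (log2 fold change 1.07, SE 0.26, edgeR adjusted p = 0.0403), and in pancreatic tumors the difference of 0.45 (SE 0.21, adjusted p = 0.336) did not pass. The oral call was just past the fold threshold and was lost on omission of any of the 6 tumors (adjusted p from 0.0574 to 0.212, log2 fold change 0.69 to 1.37). It was also lost with no count filter (0.99, adjusted p = 0.0613), among protein-coding genes alone (1.26, 0.0692) and, by size alone, with apeglm shrinkage (0.93) and in 1 fit of all 13 tumors (1). Ccl25 was 2.15-fold higher in oral than in pancreatic KO tumors (log2 fold change 1.1, SE 0.29, edgeR adjusted p = 0.0321), and by 0.6 (SE 0.2, adjusted p = 0.0607) among WT tumors. The KO call was lost without oral KO tumor 2 (adjusted p = 0.134) or without pancreatic KO tumor 1, 2 or 3 (0.0731, 0.0747 and 0.0783). Ccl25 overlaps Elavl1 on the opposite strand, and reads were assigned by strand.

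Ccl27a, a chemokine of keratinocytes that acts on Ccr10, measured 3.03, 2.23, 2 and 4.43 CPM in oral WT, 1.77 and 1.02 CPM in oral KO, 0.157, 1.07, 0.428 and 0.379 CPM in pancreatic WT and 0.906, 1.18 and 0.785 CPM in pancreatic KO tumors. It was 5.81-fold higher in oral than in pancreatic WT tumors (log2 fold change 2.54, SE 0.55, edgeR adjusted p = 0.0109), a call kept under every alternative tried, and by 0.6 (SE 0.45, adjusted p = 0.327) among KO tumors. The gene has near-identical copies, with 57% of its 31-base sequences found in other genes, so that its counts are uncertain. The 5 squamous keratinocyte genes summed to 4430 to 9070 CPM in oral WT and 10600 to 19000 CPM in pancreatic WT tumors. Of the 5, 3 were called lower in oral WT tumors and 1 had a difference toward them. The part of keratinocytes in the level of Ccl27a was not tested. Ccl1, a ligand of Ccr8, measured 0.802, 1.21, 0.0938 and 3.53 CPM in oral WT, 0.652 and 0 CPM in oral KO, 0.105, 0.145, 0.0902 and 0.0757 CPM in pancreatic WT and 0.169, 0.0576 and 0.00902 CPM in pancreatic KO tumors. The pancreatic WT values rest on 3 to 5 counts each. Ccl1 was higher in oral WT tumors (log2 fold change 3.74, SE 0.91, edgeR adjusted p = 0.0189), and the call was lost without pancreatic WT tumor 1, 3 or 4 (0.0512, 0.0577 and 0.0503). Its GENCODE model, chr11:82176657-82305690, starts 125878 bases before the RefSeq start.

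Ccl28 and Ccl20, both made by mucosal epithelium, were lower in both oral KO tumors than in every oral WT tumor without passing the main edgeR test. Ccl28 measured 0.691, 4.49, 1.84 and 1.37 CPM in oral WT, 0.0931 and 0.182 CPM in oral KO (1 and 5 counts), 13.1, 1.76, 6.36 and 5.81 CPM in pancreatic WT and 9.31, 10 and 0.126 CPM in pancreatic KO tumors. Its oral KO-over-WT difference was just short of the threshold (log2 fold change -3.61, SE 0.98, edgeR adjusted p = 0.0502), and DESeq2 called it (adjusted p = 0.00327). With edgeR it was called with DESeq2 size factors (0.0487), with no count filter (0.0312) and after thinning to the smallest library (0.0441). It was not called among protein-coding genes alone or on omission of any oral WT tumor. Ccl20 measured 1.05, 3.5, 1 and 6.43 CPM in oral WT and 0.559 and 0 CPM in oral KO tumors (-3.55, SE 1.55, edgeR adjusted p = 0.152), and DESeq2 called it as well (-3.45, adjusted p = 0.0185). Ccl21a, which guides dendritic cells into lymphatic vessels, measured 3.63, 3.56, 0.156 and 0.348 CPM in oral WT, 4.28 and 4.88 CPM in oral KO, 8.84, 0.347, 2.12 and 11 CPM in pancreatic WT and 5.79, 3.75 and 1.68 CPM in pancreatic KO tumors. It shares 80.6% of its 31-base sequences with other genes. Ccl17, Ccl19, Ccl22 and Ccl27b stayed at or below 2.07 CPM, and Ccl21b had counts in oral WT tumor 1 only.

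Of the C and CX3C ligands, Xcl1 had at most 0.325 CPM. Cx3cl1, which exists as a membrane-bound adhesion molecule and as a shed chemokine, measured 13, 9.9, 9.13 and 10.2 CPM in oral WT, 5.77 and 7.97 CPM in oral KO, 14.2, 13.3, 9.51 and 15.5 CPM in pancreatic WT and 13.6, 17.2 and 19.4 CPM in pancreatic KO tumors. The oral KO tumors had the 2 lowest values of all 13, and Cx3cl1 was 2.3-fold lower in them than in pancreatic KO tumors (log2 fold change -1.2, SE 0.29, edgeR adjusted p = 0.0278). This call was lost on omission of any of the 5 tumors (adjusted p from 0.0526 to 0.0967), among protein-coding genes alone (0.0611) and after thinning of the counts to the smallest library (0.054).

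**Figure D4:**
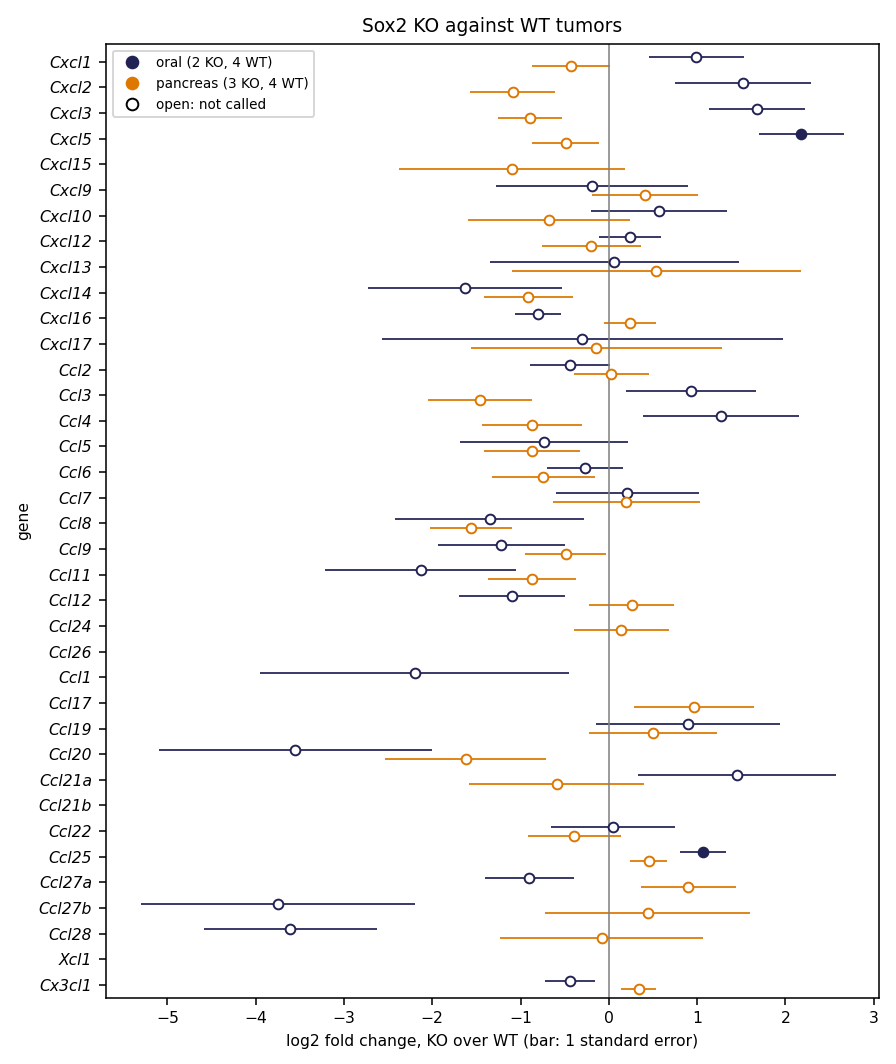
Log2 fold change of each member between Sox2 KO and WT tumors (x axis; positive is higher in KO) in oral (dark blue, 2 against 4) and pancreatic tumors (orange, 3 against 4), with bars of 1 standard error. Cxcl5 and Ccl25 in oral tumors are the filled, called points, and Cxcl1, Cxcl2, Cxcl3 and Cxcl5 lie right of 0 in oral and left of 0 in pancreatic tumors.

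Among the 19 chemokine receptor genes, Cxcr6 was called up and Cxcr2 down of 14 tested in oral against pancreatic WT tumors, Cxcr6 and Ccr7 (log2 fold change 2.52, SE 0.62, edgeR adjusted p = 0.0278) up of 13 tested in oral against pancreatic KO tumors, and Cxcr4 down of 14 tested in oral KO against WT tumors. Of the 5 atypical receptors, which remove chemokines without signaling for migration, Ackr4 was called. Ackr4, a scavenger of Ccl19, Ccl21 and Ccl25, measured 3.97, 7.52, 7.13 and 11.3 CPM in oral WT, 1.86 and 2.8 CPM in oral KO, 0.236, 0.0289, 0.0902 and 0.202 CPM in pancreatic WT and 0.284, 0.887 and 0.686 CPM in pancreatic KO tumors. The oral WT tumors lay highest and the oral KO tumors between the oral WT and pancreatic tumors, and its genotype effect differed between the sites (oral minus pancreas -3.66 on the log2 scale, SE 0.86, edgeR adjusted p = 0.0196). Of 14 cytokines that induce chemokines, 4 of 9 tested were lower in oral than in pancreatic WT tumors (Il1a, Il1b, Il6 and Il33), and Il1b and Il6 (log2 fold change 2.91, SE 0.68, edgeR adjusted p = 0.0358) rose in oral KO tumors. Among the oral and pancreatic KO tumors, Il33 and Tslp were the 2 called, both lower in oral tumors. Of 8 NF-kB feedback genes, Nfkbie was higher and Nfkbiz lower in oral WT than in pancreatic WT tumors (log2 fold changes 1.26 and -2.22). Birc3 (1.12) alone of the 8 differed by genotype effect between sites. For all these lists, 16.5% of all genes were called by site in WT tumors and 25.2% in KO tumors. The shares were 11.7% between oral KO and WT tumors and 12.3% for the difference of the effects.

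Marker genes of other cell types also differed by site, and some by genotype. The 5 fibroblast genes summed to 6740 to 14400 CPM in oral WT, 6650 and 6680 CPM in oral KO, 844 to 1710 CPM in pancreatic WT and 1630 to 2780 CPM in pancreatic KO tumors, and all 5 were called, higher in oral than in pancreatic WT tumors. Of them, Dcn (log2 fold change -3.4, SE 0.53, edgeR adjusted p = 0.0196) and Lum (-2.09, SE 0.47, adjusted p = 0.0347) fell in oral KO against oral WT tumors. Of all genes, 9.3% were called higher in oral than in pancreatic WT tumors and 2.89% lower in oral KO tumors. The 5 skeletal muscle genes summed to 4670 CPM in oral KO tumor 1, 2570 CPM in oral KO tumor 2 and 474 CPM in oral WT tumor 4, against at most 5.06 CPM in the other 10 tumors. Of these 5 genes, edgeR called 0 between oral KO and WT tumors, against 11.7% of all genes. The 5 pancreatic acinar genes summed to 207 CPM in pancreatic KO tumor 3 and to at most 13.1 CPM elsewhere. No fibroblast or muscle gene was at 0 throughout a group, whereas Ctrb1 was at 0 in the oral WT tumors and Prss2 and Pnlip in the oral KO tumors. B cell genes (4) summed to at most 1.46 CPM, NK cell genes (4; Ncr1 at 0 in the oral KO and pancreatic WT tumors) to at most 3.41 CPM and dendritic cell genes (4) to at most 5.77 CPM in any tumor. Endothelial genes (5) summed to 66 to 185 CPM and lymphatic endothelial genes (4) to 15 to 47.4 CPM. The part of these cell types in the ligand levels was not tested.

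**Figure D5:**
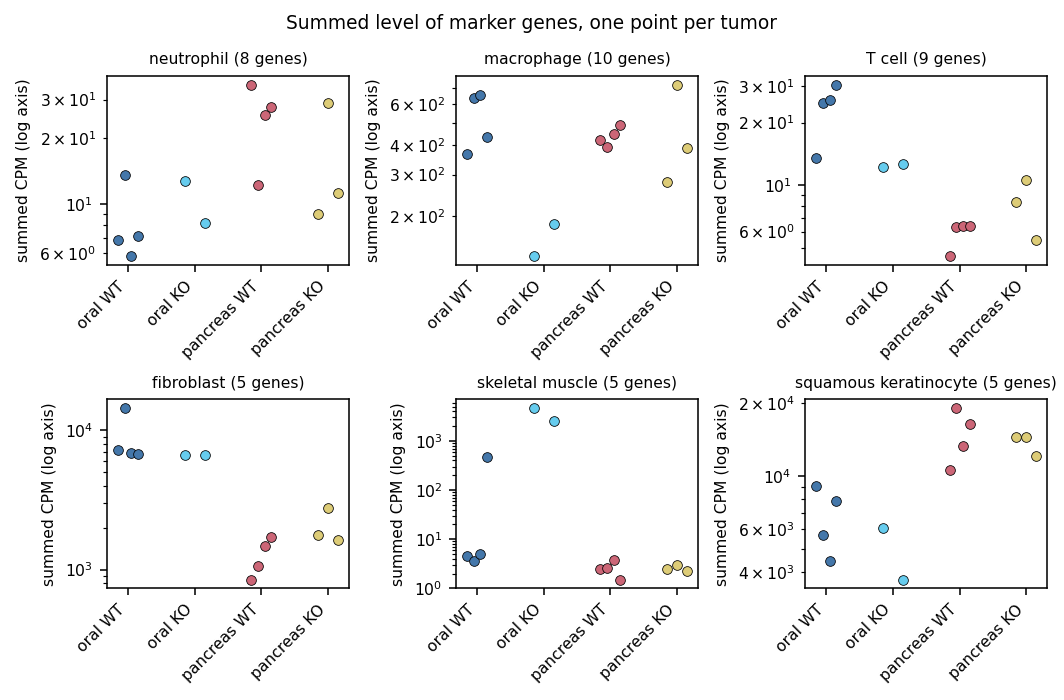
Summed CPM of 6 marker gene lists in each tumor (points), by group, on log axes. Neutrophil genes reach their highest sum, 35.1 CPM, in a pancreatic WT tumor, T cell and fibroblast genes are higher in oral than in pancreatic WT tumors, macrophage genes are lowest and muscle genes highest in the 2 oral KO tumors, and keratinocyte genes are higher in the pancreatic tumors.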

How the data were processed

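Gene expression was measured by RNA sequencing of 13 mouse tumors. The authors trimmed reads with Trim Galore (0.6.10), checked them with FastQC (0.12.1), quantified GENCODE M23 transcripts (GRCm38) with kallisto (0.50.0) in stranded mode and summed them to genes with tximport. They deposited unscaled estimated counts, of which 27.3% were not whole and which were rounded here before testing. Symbols, gene types, positions and exon lengths came from GENCODE M21, matched by identifier for 55141 of 56085 rows.

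Groups came from the labels. Counts were tested with edgeR (4.0.16, R 4.3.3; TMM scaling, robust quasi-likelihood test) in 5 comparisons, namely KO against WT at each site, the difference of these effects over all 13 tumors, and oral against pancreas in each genotype. A gene entered a fit when 2 or more of its tumors reached 10 counts, p-values were adjusted by Benjamini-Hochberg over all of them, and a call needed a log2 fold change beyond 1 in size together with an adjusted p below 0.05. Levels are CPM on TMM-scaled totals. The limit of 3 counts corresponds to 0.0249 to 0.256 CPM on library totals without the TMM factor, and covers counting error only. The script was tested on simulated data. Each member is given by function group, with values in every tumor for those called in any comparison and the 15 highest by CPM per kb, and up to 6 called genes per comparison of the other lists. Other members given with a fold change were chosen after their values were seen. The members and lists were chosen with earlier results of these data known. The labels do not state that tumors came from separate animals, so p-values measure the spread between these tumors. Alternatives were DESeq2 (1.42.0) with and without apeglm (1.24.0) shrinkage, size factors, other count filters, protein-coding genes alone, 1 fit of all tumors, a replicate block and omission of each tumor. Thinning counts to the smallest library was chosen after seeing the data. Fold changes were followed under these settings for members alone, and the calls of other named genes were not rechecked. Promoters were read from RefSeq (GRCm38.p6), with entries for 27 of 37 members.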

Additional observations from a re-analysis of the deposited data

Results flagged for a closer look

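Among the 22 genes given per tumor, 44 groups of 4 tumors were examined for a tumor far from the other 3, and 7 held one. The nominal rate of this rule, about 1 in 20 groups, assumes normal and independent values. These are untransformed CPM of genes measured in the same tumors, so the 7 cannot be compared with chance. In oral WT tumors these were Ccl3 in tumor 4 (1.9 CPM), Ccl7 in tumor 3 (1.28 CPM, the lowest), Cxcl15 in tumor 2 (0.155 CPM, from 5 counts) and Cxcl17 in tumor 2 (14.1 CPM). In pancreatic WT tumors they were Ccl9 in tumor 1 (20.5 CPM), Cxcl5 in tumor 4 (81 CPM) and Cxcl9 in tumor 2 (1.48 CPM). The effect of Sox2 loss differed between the sites, by the edgeR interaction test, for Cxcl3 (oral minus pancreas 2.52 on the log2 scale, adjusted p = 0.029) and Cxcl5 (2.6, adjusted p = 0.0259). The oral KO tumors were the 2 shallowest and the pancreatic KO tumors the 3 deepest, and after counts were thinned to the smallest library the differences were 2.8 for Cxcl3 (edgeR adjusted p = 0.0206) and 2.68 for Cxcl5 (0.0367).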

How the results depend on the processing

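The number of members called was 2 in oral KO against WT tumors, and became 6 with DESeq2, 5 with apeglm shrinkage, 0 among protein-coding genes alone and 0 with the replicate block, while the count over all genes went from 2614 to 4004, 3513, 27 and 62. In pancreatic tumors it was 0 and became 1 with DESeq2, with shrinkage and with the block, with 155, 1111, 890 and 590 over all genes. Between WT tumors of the 2 sites it was 10 and became 6 with the block, and between KO tumors it was 6 and became 3 among protein-coding genes alone and 5 with the block. Omitting 1 tumor gave 0 to 2 members in oral tumors (0 without any tumor but oral WT tumor 4), 0 to 0 in pancreatic tumors, 1 to 4 for the difference of the effects, 5 to 13 between WT tumors (5 without pancreatic WT tumor 1 or 4, 6 without oral WT tumor 1 or pancreatic WT tumor 3) and 0 to 4 between KO tumors (0 without oral KO tumor 2, 2 without pancreatic KO tumor 1, 3 without pancreatic KO tumor 2). Over all genes, omission gave 36 to 2616, 43 to 269, 1510 to 4162, 2821 to 4102 and 3241 to 4988 calls. Further counts over all genes that moved by over 1.5 times were, in pancreatic tumors, 239 with no filter, 75 with 10 counts in every tumor, 10 among protein-coding genes and 92 in the fit of 13 tumors. In oral tumors the fit of 13 tumors gave 5082. For the difference of the effects, the block gave 1935, thinning 1805 and protein-coding genes 791. Between the sites, WT tumors gave 2431 with 10 counts in every tumor, and KO tumors gave 2869 among protein-coding genes and 3515 with the block. Cxcl5 between KO tumors ranged from -0.8 to 0.08 with 1 tumor omitted and reversed, to 0.08, without pancreatic KO tumor 2. Of 339 fold changes under other settings, 297 kept direction and side of the threshold, 22 lost and 20 gained a call. Of 276 with 1 tumor omitted, 207 kept both, 65 lost and 3 gained a call. The cause of these changes was not tested. Same-numbered WT and KO tumors correlated in their deviations from the group mean at -0.08 and -0.04 in oral and 0.32, -0.02 and -0.07 in pancreatic tumors. The deviations of 2 oral KO tumors mirror each other, so these values cannot settle whether tumor numbers pair the tumors. Cxcl15, Ccl1 and Ccl28 had 5 or fewer counts in several tumors, and after thinning Cxcl15 (adjusted p = 0.0435) and Ccl1 (0.0209) stayed called and Ccl28 (0.0441) became so.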
